A study of Mus musculus with 21 samples.

Results

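The paired myeloid receptors described here are 8 genes of the SIRP, PILR and CD300 families and their relatives: Sirpa, Sirpb1a, Pilra, Cd300c2, Cd300a, Cd300lf, Pecam1 and Lair1. They were taken by name from a count table of 55471 genes, in which all 8 were found by Ensembl identifier. The members were chosen by their levels in these libraries, which were known when the list was drawn up. Their differences between sorted populations and between tissues are therefore given as descriptions with no test, and the comparison of genotypes is tested. The choice named all 7 groups, of both genotypes, so the genotype p-values of the members may not be independent of it. No threshold on a value defined the list.

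Paired receptors are surface proteins whose outer parts are alike and whose signals oppose each other. The inhibitory members carry tyrosine motifs (ITIMs) in the cytoplasmic tail, which recruit the phosphatases SHP-1 and SHP-2, while the activating members have short tails and signal through adaptors such as DAP12. SIRPα (Sirpa), PILRα (Pilra), CD300a, CD300lf, LAIR-1 and PECAM-1 belong to the inhibitory kind, and SIRPβ1 (Sirpb1a) and CD300c2 to the activating kind. On dendritic cells (DCs) SIRPα is widely used as a marker of the cDC2 branch.

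RNA was sequenced from DCs of mice carrying a reporter knock-in allele for Aire, AGF-KI, on the C57BL/6 background at 6 weeks of age. Lymph node cells gated as CD45+CD11c+MHCII+ gave AGF+ and AGF− DCs, each from AGF-KI/- mice, which the titles call AireKO, and from AGF-KI/+ mice (KI/+ below). From bone marrow came AGF+ cells of AireKO and of KI/+ mice, gated as B220−CD24+ with low or no CD11b. Total DCs from bone marrow of KI/+ mice were gated as B220−CD11c+MHCII+, so that the bone marrow populations differ in gate. The titles call this second population total DC and the design text calls it AGF-, so whether it was also sorted on the reporter is uncertain. All bone marrow groups are titled BMDC and all lymph node groups LNDC. A culture step for the bone marrow cells, if there was one, cannot be told apart from tissue in the comparisons below. Every group thus carried the reporter allele, and no group without it was analysed here. Each of the 7 groups held 3 biological replicates, and none of these libraries was left out. Levels are CPM, the reads of a gene scaled to a common library size of 1000000, given as mean ± SD with n = 3, and log2 fold changes are given ± SE.

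The 21 libraries held 4164451 to 6055097 counts, and an absence of reads puts the level under 0.456 to 0.764 CPM, depending on the library, by counting error alone. Aire stood at 25.2 ± 2.09 CPM in AireKO and 114 ± 16.6 CPM in KI/+ lymph node AGF+ cells, and at 14.5 ± 4.47 CPM in AireKO and 101 ± 19.1 CPM in KI/+ bone marrow AGF+ cells. All 8 DC markers examined were detected in every group, with summed levels of 5106 to 10015 CPM. The labels give male mice, yet the 7 libraries numbered 2, 1 per group, held Xist at 2021 to 3993 CPM with 4 Y-linked genes summing to 0.766 CPM or less, whereas Xist was at most 31.1 CPM in the other 14, whose Y-linked sum was 329 to 566 CPM. Without those 7 libraries the members' log2 fold changes between sorts ranged from -5.07 to -0.48 in AireKO and -4.37 to -0.33 in KI/+ lymph node and from -4.97 to 0.23 in bone marrow, with the same sign for each member as with them. Replicates differed by more than counting noise in all 21 pairs, with a chi-square of 4.46 to 20.3 for each degree of freedom.

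In the lymph node, AGF+ cells held less of every one of the 8 transcripts than AGF− cells, in both genotypes, by amounts that differed widely between members. In AireKO mice 7 of the 8 had AGF+ libraries wholly below the AGF− libraries, as did 19.2% of the 15884 genes tested, and in KI/+ mice again 7 of the 8, against 19.1% of genes. The median log2 fold change over the 8 was -1.71 in AireKO and -1.36 in KI/+ mice, beside 0.01 over all genes in each. In such bulk samples fewer cells that express a gene and less RNA per cell cannot be told apart.

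**Figure D1:**
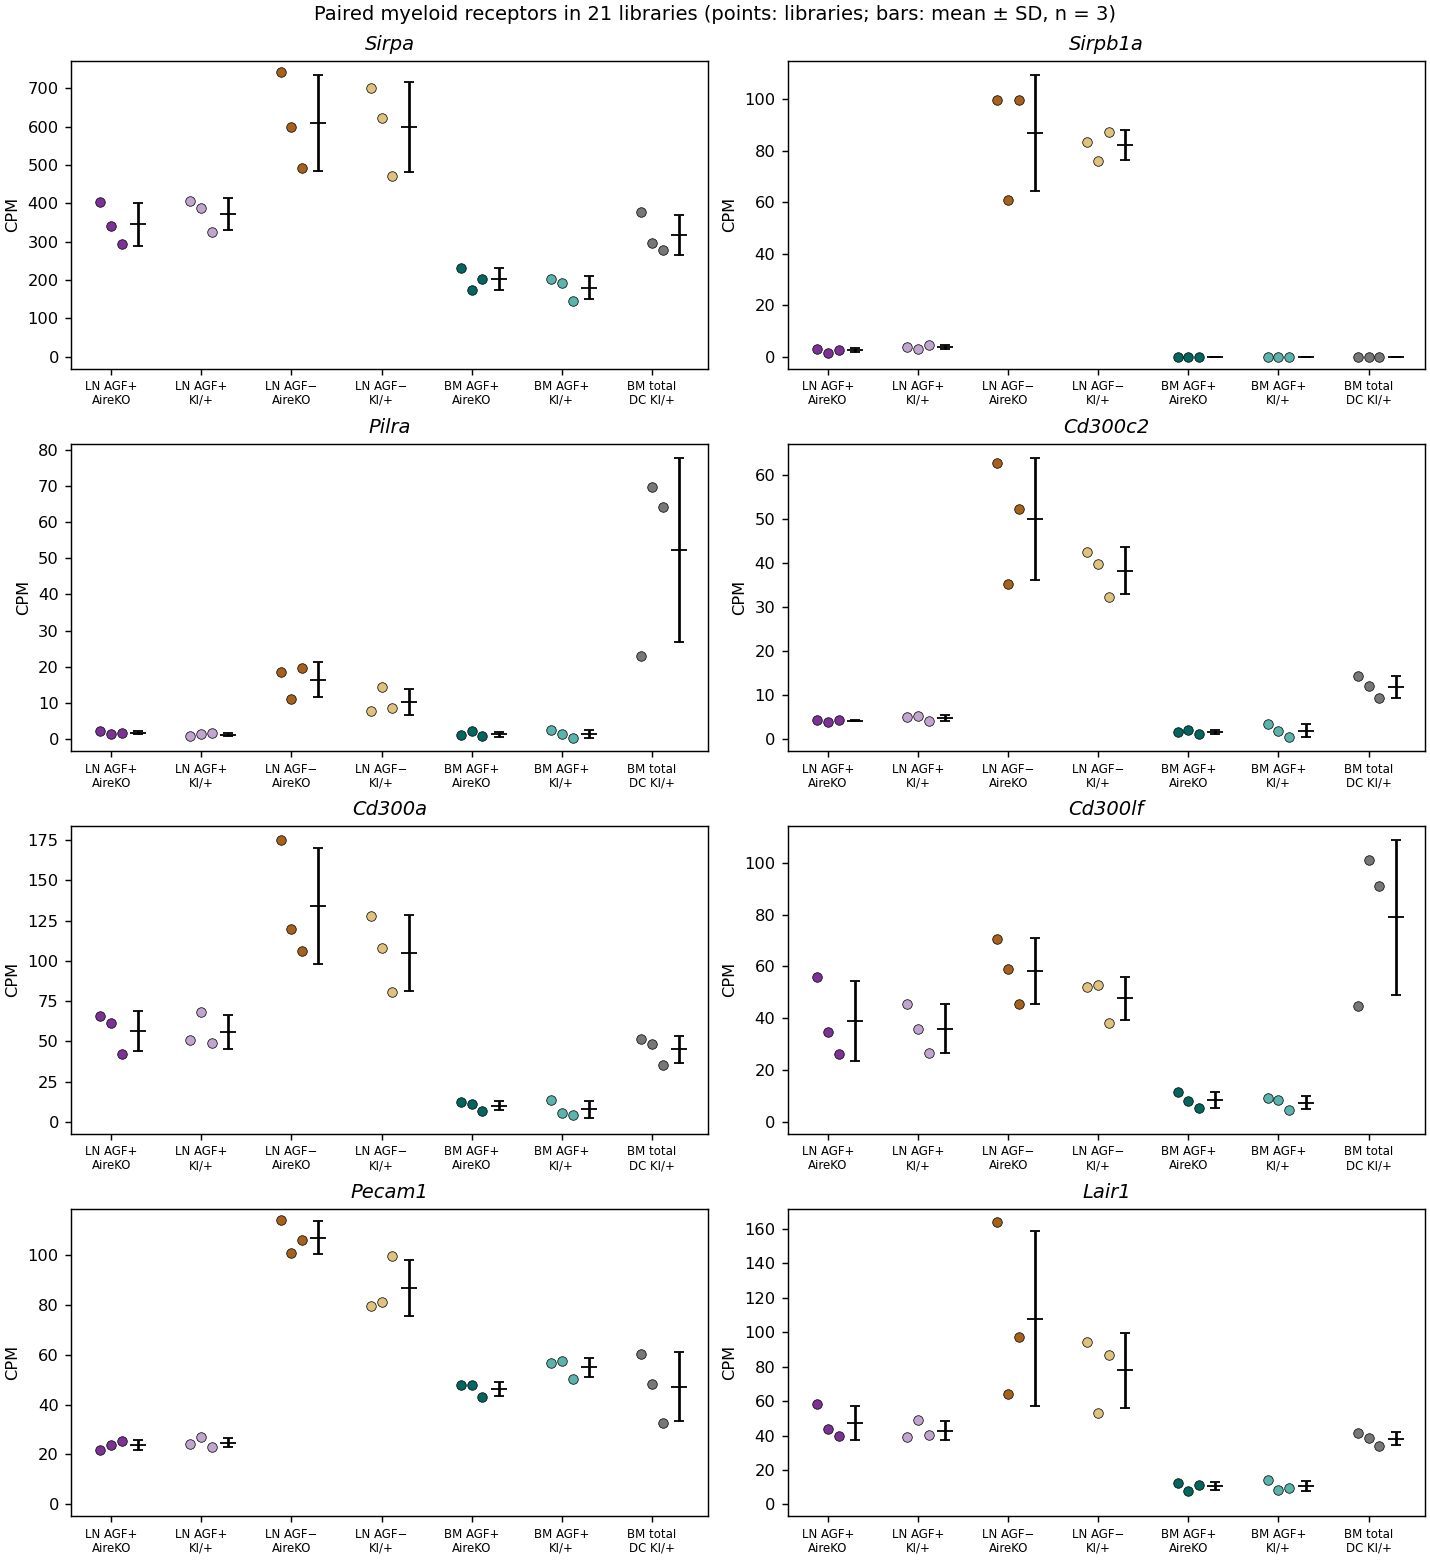
Levels of the 8 receptor genes in CPM (vertical axes, linear) in each library of the 7 groups (horizontal axes), with points for libraries and bars for mean ± SD (n = 3). Sirpb1a stood at 82.3 CPM in lymph node AGF− cells of KI/+ mice and at 0 in all bone marrow libraries, whereas Sirpa was found in every library.

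Sirpa, which encodes the inhibitory receptor for the broadly expressed surface protein CD47, was the highest member per length in every group. It lies on chromosome 2 of GRCm38 (129592835 to 129632228, plus strand, ENSMUSG00000037902). In lymph node AireKO mice it had 404, 339.6 and 293 CPM in AGF+ libraries, against 741, 598 and 493 CPM in AGF− libraries. In KI/+ mice it had 405, 388 and 325 CPM in AGF+ libraries, against 701, 623 and 471 CPM in AGF− libraries. The 2 sorts did not overlap in either genotype, and the log2 fold change was -0.82 ± 0.18 in AireKO and -0.68 ± 0.18 in KI/+ mice, which is 1.77-fold and 1.61-fold lower. In bone marrow the gene stood at 203, 192 and 146 CPM in KI/+ AGF+ cells, against 376, 297 and 277 CPM in total DCs (-0.80 ± 0.16), again without overlap. Group means of Sirpa spanned 180.1 to 610.4 CPM, and those of Pecam1 23.7 to 107 CPM.

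Sirpb1a, on chromosome 3 (15371653 to 15426520, minus strand, ENSMUSG00000095788), encodes a DAP12-coupled relative of SIRPα that does not carry the ITIMs. AGF+ libraries held 3.18, 1.61 and 2.66 CPM in AireKO mice, against 99.9, 61.0 and 99.9 CPM in AGF− libraries. In KI/+ mice they held 3.94, 2.89 and 4.37 CPM, against 83.4, 75.9 and 87.5 CPM in AGF− libraries. This was the widest gap of any member in the lymph node, -5.10 ± 0.26 in AireKO and -4.47 ± 0.25 in KI/+ mice, or 34.3-fold and 22.2-fold lower. All 9 bone marrow libraries had 0 counts of it.

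Its neighbours Sirpb1b and Sirpb1c showed the same picture. They are not members and their test values are given, but they too were listed with results of these data known. Their p-values, and those of the PILR and CD300 relatives below, are therefore no independent support. Sirpb1b stood at 0.835 ± 0.536 CPM in AireKO and 1.26 ± 0.29 CPM in KI/+ AGF+ cells, against 38.2 ± 14.2 and 29.5 ± 3.12 CPM in the AGF− cells of the same genotypes. It fell by 5.49 ± 0.39 on the log2 scale in AireKO (edgeR adjusted p = 7.6e-07) and fell by 4.53 ± 0.36 in KI/+ mice (adjusted p = 2.9e-06). Sirpb1c fell by 5.97 ± 0.44 (adjusted p = 9.6e-07) in AireKO and by 5.13 ± 0.42 (adjusted p = 3.5e-06) in KI/+ mice. In bone marrow each had 1 count in the 3 total DC libraries and 0 in the AGF+ libraries. Lymph node AGF+ cells thus held at least 3.81-fold (AireKO) and 6.59-fold (KI/+) more Sirpb1b than bone marrow AGF+ cells, and at least 3.52-fold and 5.10-fold more Sirpb1c, taking a floor of 3 counts over the group. Of the 150-base stretches in annotated Sirpb1a transcripts 12.8% also occur in another gene, as do 28.1% of those of Sirpb1b and 20.6% of those of Sirpb1c, so the split of reads among the 3 genes is uncertain.

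Set against Sirpa per length, the activating genes made up a much smaller part of SIRP signal in lymph node AGF+ cells than in AGF− cells. Sirpb1a, Sirpb1b and Sirpb1c together made up 2.24 ± 0.864% of SIRP signal in AireKO and 3.04 ± 0.781% in KI/+ lymph node AGF+ cells. The share was 34.0 ± 9.69% in AireKO and 31.7 ± 4.93% in KI/+ AGF− cells, and no AGF+ library reached the lowest AGF− library, which stood at 24.9%. The 2 counts in bone marrow total DCs gave 0.0698 ± 0.121%.

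**Figure D2:**
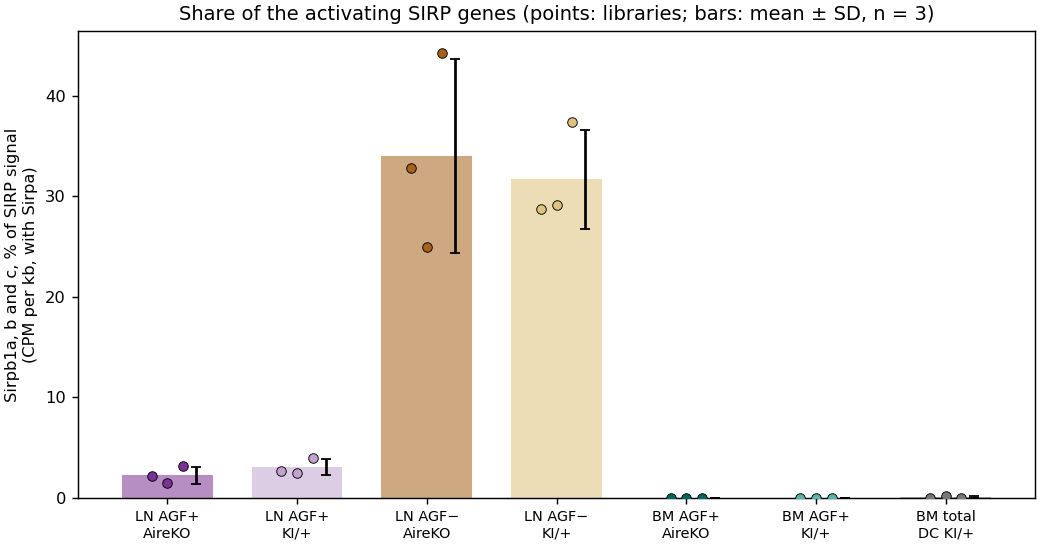
Share of Sirpb1a, Sirpb1b and Sirpb1c in SIRP signal per length, in percent (vertical axis, from 0), for each library (points) of the 7 groups, with bars at mean ± SD (n = 3). The lymph node AGF− libraries lie between 24.9% and 44.2%, above all AGF+ libraries.

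Pilra, on chromosome 5 (137821952 to 137836281, minus strand, ENSMUSG00000046245), encodes the inhibitory partner in the PILR pair. It was scarce in AGF+ cells of either tissue, with 2 to 13 counts per library. In the lymph node, AireKO mice had 2.17, 1.40 and 1.84 CPM in AGF+ libraries, against 18.5, 11.1 and 19.8 CPM in AGF− libraries (-3.16 ± 0.36), and KI/+ mice had 0.788, 1.37 and 1.75 CPM, against 7.77, 14.5 and 8.67 CPM (-3.01 ± 0.38). In bone marrow AGF+ libraries of KI/+ mice held 2.45, 1.34 and 0.357 CPM, against 23.0, 69.6 and 64.2 CPM in total DCs, which is 37.9-fold lower (-5.24 ± 0.55) and became -5.92 without the first AGF+ library. Its 3′ end overlaps that of Zcwpw1 on the other strand, which held 1.78 to 4.89 CPM on average in the 7 groups. Bone marrow total DCs were the highest group of Pilra, with the first of their libraries well below the other 2.

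The activating genes of this pair, Pilrb1 and Pilrb2, lie beside it and were lower in the same comparisons. Pilrb1 fell by 4.63 ± 0.61 in AireKO (edgeR adjusted p = 0.00011) and by 2.31 ± 0.58 in KI/+ lymph node AGF+ cells (adjusted p = 0.0109), and Pilrb2 fell by 3.58 ± 0.50 in AireKO (adjusted p = 0.00016) and fell by 2.08 ± 0.48 in KI/+ cells (adjusted p = 0.00693). Bone marrow AGF+ cells were lower in both: Pilrb1 fell by 3.71 ± 0.68 (adjusted p = 0.00117) and Pilrb2 by 3.48 ± 0.79 (adjusted p = 0.00429). Per length the activating pair made up 54.1 ± 0.981% of PILR signal in AireKO and 48.7 ± 6.29% in KI/+ lymph node AGF− cells, and 30.7 ± 2.98% in bone marrow total DCs. In the AGF+ groups that share rests on 11 to 23 counts of the activating genes and spread from 0% to 84.7% between libraries.

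The upstream sequences of the 3 PILR genes are shown because they are almost the same although the genes have opposite signs in signalling. In 196 bases aligned without gaps Pilra matched Pilrb1 at 98% and Pilrb2 at 99.5% of positions, and the 4 columns in which the 3 genes are not all alike are in capitals. The stretch ends at the RefSeq start of Pilra and 54 bases before the RefSeq starts of the other 2 (RefSeq sequences, GRCm38.p6, 5′ to 3′ on the strand of the gene).
Pilra, chr5:137836279-137836474, minus strand: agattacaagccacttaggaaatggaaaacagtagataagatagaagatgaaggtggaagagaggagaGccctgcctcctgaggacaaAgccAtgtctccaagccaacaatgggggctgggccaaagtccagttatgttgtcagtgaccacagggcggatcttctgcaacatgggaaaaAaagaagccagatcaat
Pilrb1, chr5:137858104-137858299, minus strand: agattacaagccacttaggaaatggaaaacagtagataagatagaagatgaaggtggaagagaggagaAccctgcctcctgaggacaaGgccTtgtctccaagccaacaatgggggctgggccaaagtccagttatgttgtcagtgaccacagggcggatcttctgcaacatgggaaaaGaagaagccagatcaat
Pilrb2, chr5:137871813-137872008, minus strand: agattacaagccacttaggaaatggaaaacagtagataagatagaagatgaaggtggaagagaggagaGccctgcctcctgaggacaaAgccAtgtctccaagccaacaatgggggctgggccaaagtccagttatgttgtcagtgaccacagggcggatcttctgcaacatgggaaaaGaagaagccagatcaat
By comparison, 94.9% of 198 aligned bases were the same in Sirpb1a and Sirpb1c, and 37.8% of 225 in Cd300a and Cd300c. Between the member Cd300c2 and Cd300a 31.7% of 246 bases were the same, and between Cd300ld4 and Cd300ld5 100% of 250.

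Of the CD300 members, Cd300c2 moved most in the lymph node and Cd300lf least. Cd300c2 (chromosome 11, 114996721 to 115001880, minus strand, ENSMUSG00000044811) encodes an activating receptor that signals through DAP12. AGF+ libraries had 4.35, 4.01 and 4.30 CPM in AireKO mice, against 62.7, 35.2 and 52.3 CPM in AGF− libraries, and 5.05, 5.32 and 4.15 CPM in KI/+ mice, against 42.6, 39.9 and 32.3 CPM. It was 11.8-fold lower in AireKO (-3.56 ± 0.23) and 7.82-fold lower in KI/+ mice (-2.97 ± 0.23). In bone marrow it stood at 3.47, 1.91 and 0.535 CPM in KI/+ AGF+ libraries, against 14.3, 12.1 and 9.45 CPM in total DCs (-2.60 ± 0.42), again with no overlap. Without the first AGF+ library this became -3.27.

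Cd300a (chromosome 11, 114890041 to 114904654, plus strand, ENSMUSG00000034652) encodes an inhibitory receptor for phosphatidylserine and related lipids on dying cells. Its lymph node AGF+ libraries held 65.5, 61.2 and 42.2 CPM in AireKO mice, against 175, 119.9 and 106 CPM in AGF− libraries (-1.25 ± 0.23). In KI/+ mice they held 50.9, 68.1 and 48.9 CPM, against 128, 108 and 80.7 CPM (-0.91 ± 0.23). In bone marrow, whose difference from lymph node was not tested, KI/+ AGF+ libraries had 13.7, 5.55 and 3.92 CPM, against 51.6, 48.1 and 35.5 CPM in total DCs, 5.82-fold lower (-2.54 ± 0.37). Without the first AGF+ library this became -3.24.

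Cd300lf (chromosome 11, 115116214 to 115133992, minus strand, ENSMUSG00000047798), which encodes a mainly inhibitory receptor for lipids, was the 1 member whose lymph node sorts overlapped. AGF+ libraries had 55.8, 34.7 and 26.0 CPM in AireKO mice, against 70.4, 59.1 and 45.3 CPM in AGF− libraries (-0.58 ± 0.27), and 45.3, 36.0 and 26.4 CPM in KI/+ mice, against 52.1, 52.9 and 38.0 CPM (-0.41 ± 0.27). In bone marrow its AGF+ libraries stood at 9.18, 8.42 and 4.64 CPM, against 44.8, 101 and 91.0 CPM in total DCs, which is 10.6-fold lower (-3.40 ± 0.36). The gene lies within the span of Rab37 on the other strand, which held 1.05 to 11.6 CPM on average in the 7 groups, and no source used here gives whether counting used strand.

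Among the other CD300 genes, the activating receptors Cd300lb and Cd300ld fell in the lymph node AGF+ cells of both genotypes. Cd300lb stood at 0.849 ± 0.582 CPM in AireKO AGF+ cells, against 16.6 ± 4.85 CPM in AGF− cells, and fell by 4.21 ± 0.38 (edgeR adjusted p = 4.8e-06). Cd300ld fell by 4.30 ± 0.40 in AireKO (adjusted p = 5.7e-06) and by 3.73 ± 0.41 in KI/+ mice (adjusted p = 3.1e-05), and Cd300lb was at -3.62 ± 0.36 in KI/+ mice (adjusted p = 1.5e-05). Cd300c, Cd300e and Cd300lg fell there too, with Cd300c at -3.63 ± 0.56 and Cd300lg at -3.30 ± 0.56 in AireKO, against -2.98 ± 0.55 and -2.27 ± 0.53 in KI/+ mice. Cd300e was at -3.85 ± 0.80 in KI/+ mice, and in AireKO mice its 3 counts in AGF+ cells were 62.6-fold lower than its 193 counts in AGF− cells (95% counting interval 21.1-fold to 306-fold). The bone marrow AGF+ cells were lower in Cd300ld (-4.35 ± 0.54, adjusted p = 9.4e-05), Cd300lb (-2.71 ± 0.41, adjusted p = 0.00036) and Cd300c (-2.01 ± 0.24, adjusted p = 6.9e-05). Cd300ld2, Cd300ld3, Cd300ld4 and Cd300ld5 were too low to test, and 78.7% to 100% of the 150-base stretches of the last 3 occur in another gene.

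Lair1 (chromosome 7, 4003402 to 4063204, minus strand, ENSMUSG00000055541) encodes an inhibitory receptor for collagens and C1q. Lymph node AGF+ libraries held 58.2, 43.6 and 40.0 CPM in AireKO mice, against 164, 63.9 and 97.5 CPM in AGF− libraries (-1.20 ± 0.29), and 39.0, 49.1 and 40.4 CPM in KI/+ mice, against 94.1, 53.1 and 86.7 CPM (-0.86 ± 0.30). The libraries numbered 2 were the lowest of the AGF− cells in both genotypes, near the highest AGF+ library. In bone marrow, 14.1, 8.23 and 9.63 CPM in KI/+ AGF+ libraries stood against 41.6, 38.5 and 34.1 CPM in total DCs, 3.54-fold lower (-1.82 ± 0.22).

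Pecam1 (chromosome 11, 106654217 to 106750628, minus strand, ENSMUSG00000020717), which encodes a homophilic adhesion receptor of endothelium, platelets and leukocytes, was lower in AGF+ cells in the lymph node and overlapped between the bone marrow populations, a difference between tissues that was not tested. In the lymph node its AGF+ libraries held 21.7, 23.9 and 25.6 CPM in AireKO mice, against 114, 101 and 106 CPM in AGF− libraries (-2.18 ± 0.13), and 24.3, 26.9 and 23.1 CPM in KI/+ mice, against 79.7, 81.1 and 99.5 CPM (-1.81 ± 0.13). In bone marrow KI/+ AGF+ libraries had 56.9, 57.4 and 50.3 CPM, against 60.5, 48.3 and 32.8 CPM in total DCs, and the populations overlapped (0.23 ± 0.19). The endothelial marker Cldn5 was at 0 in all lymph node groups and in bone marrow AGF+ cells, and the 6 endothelial markers summed to 20.3 to 43.7 CPM in lymph node AGF+ and 44.2 to 94.1 CPM in AGF− libraries. In bone marrow they summed to 31.1 to 118 CPM in AGF+ libraries and 51.6 to 119 CPM in total DCs.

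**Figure D3:**
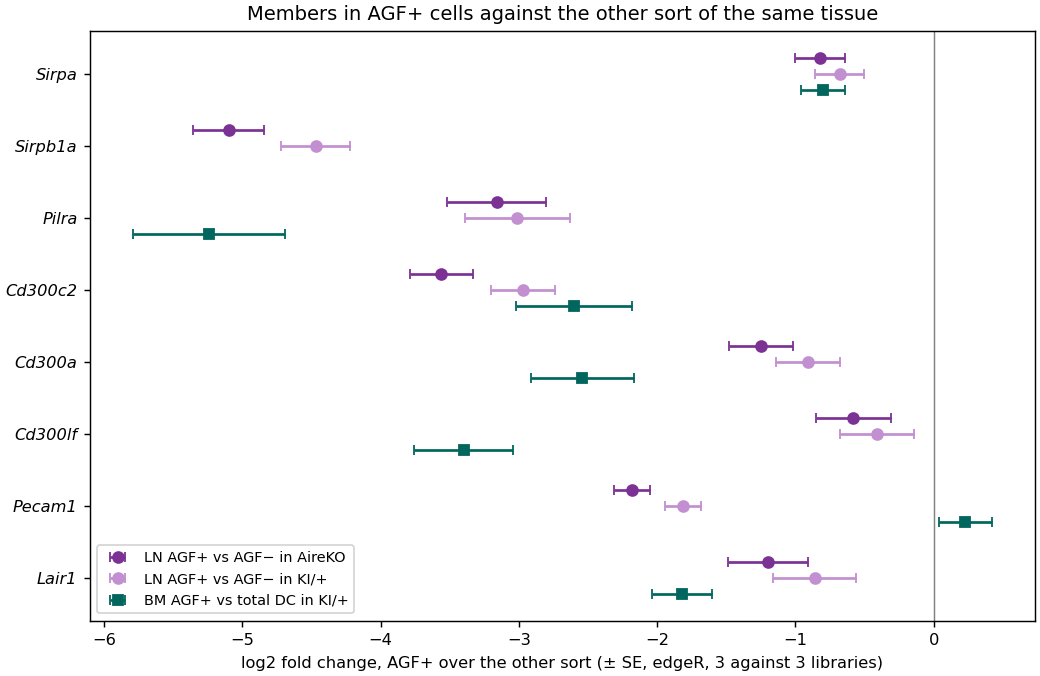
Log2 fold change of AGF+ cells over the other sort of the same tissue (horizontal axis) for each member (vertical axis), with bars of ± SE from 3 against 3 libraries. In bone marrow Pilra lies at -5.24 and Pecam1 at 0.23, and Sirpb1a has no bone marrow point because it had 0 counts there.

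Markers of several other cell types moved with these sorts. The 6 mature DC markers did not follow the members in the lymph node: 2 rose and 0 fell in AireKO, and 0 rose and 0 fell in KI/+ AGF+ cells. Of the 8 general DC markers, 2 rose and 5 fell in AireKO, and 0 rose and 4 fell in KI/+ AGF+ cells of the lymph node. The 10 monocyte and macrophage markers summed to 267 to 541 CPM in lymph node AGF+ and 2145 to 3033 CPM in AGF− libraries, and 10 of 10 fell in AireKO and 9 of the 10 in KI/+ AGF+ cells. In bone marrow they summed to 112 to 259.7 CPM in AGF+ libraries and 1035 to 1505 CPM in total DCs. Of 8 tested there in KI/+ mice, 6 fell and 1 rose in AGF+ cells. The 6 B cell markers summed to 46.8 to 77.1 CPM in lymph node AGF+ and 227 to 757 CPM in AGF− libraries, and the 6 T and NK cell markers to 4.56 to 15 CPM and 31.3 to 291 CPM in the same sorts. B cell markers ran the other way in bone marrow, with 203 to 255 CPM in KI/+ AGF+ libraries and 22.2 to 32.0 CPM in total DCs, and 4 of 4 tested rose. The 6 plasmacytoid DC markers summed to 387 to 453 CPM in lymph node AGF+ and 500.2 to 1177 CPM in AGF− libraries, and 4 fell in AireKO and 3 in KI/+ AGF+ cells. In bone marrow they summed to 1321 to 1485 CPM in KI/+ AGF+ libraries and 558 to 659 CPM in total DCs, and 5 of 6 rose. The 6 cDC2 markers summed to 80.3 to 116 CPM in lymph node AGF+ and 216 to 344 CPM in AGF− libraries. Of these, 4 fell in AireKO and 2 in KI/+ AGF+ cells, and 0 rose. In bone marrow the cDC2 markers summed to 95.4 to 135 CPM in KI/+ AGF+ libraries and 576 to 994 CPM in total DCs. There 4 of 5 tested fell and 0 rose. The cDC2 list includes Itgam, which encodes CD11b. Bone marrow AGF+ cells were gated for low or no CD11b and total DCs were not, so its level is not independent of the gate. None of the monocyte markers was at 0 in any group. Of all genes tested, 13.3% fell in AireKO and 11% in KI/+ lymph node AGF+ cells. In bone marrow AGF+ cells 23% rose and 21.3% fell. The part of these cell types in the differences between sorts was not tested.

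In bone marrow 6 of the 7 members with counts had AGF+ libraries wholly below total DCs in KI/+ mice, as did 25.4% of 15503 genes tested. The median over these 7 was -2.54, beside 0.02 over all genes. The 3 CD300 members, Pilra and Lair1 stood at 3.54-fold to 37.9-fold less, Sirpa at 1.74-fold less and Pecam1 overlapped between the populations (0.23 ± 0.19).

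Set across tissues, AGF+ cells of the lymph node held more than those of bone marrow for 6 of the 8 members in each genotype, with no overlap, as did 33.1% of 17265 genes in AireKO and 31.2% in KI/+ mice. Cd300a stood 5.60-fold higher in AireKO (2.48 ± 0.33) and 7.35-fold higher in KI/+ mice (2.88 ± 0.33, and 3.55 without the first bone marrow AGF+ library). Cd300lf was higher by 2.20 ± 0.36 and 2.29 ± 0.36, Lair1 by 2.17 ± 0.31 and 2.01 ± 0.30, Cd300c2 by 1.29 ± 0.41 and 1.33 ± 0.38 and Sirpa by 0.76 ± 0.18 and 1.05 ± 0.18 in AireKO and KI/+ mice. Sirpb1a was at least 11.7-fold higher in AireKO (40 counts against 0) and at least 19.2-fold higher in KI/+ mice (64 counts against 0), taking a floor of 3 counts over the group. Pecam1 ran the other way, lower by 1.95-fold in AireKO (-0.96 ± 0.17) and 2.21-fold in KI/+ mice (-1.14 ± 0.17), and Pilra overlapped (0.42 ± 0.66 and -0.09 ± 0.68). Without the first bone marrow AGF+ library of KI/+ mice the KI/+ value was 1.98 for Cd300c2 and 0.57 for Pilra, and without the libraries numbered 2 Pilra was at 1.04 in AireKO mice.

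Between lymph node AGF− cells and bone marrow total DCs of KI/+ mice the order changed. Pilra stood 5.05-fold lower in the lymph node cells (-2.34 ± 0.38) and Cd300lf overlapped (-0.73 ± 0.30). Sirpb1a was at least 404-fold higher in the lymph node cells (1166 counts against 0), and Sirpa (0.92 ± 0.18), Cd300c2 (1.68 ± 0.27), Cd300a (1.23 ± 0.29), Pecam1 (0.88 ± 0.16) and Lair1 (1.03 ± 0.27) were higher without overlap. That makes 6 of 8 higher, against 30.7% of genes, and 1 lower, against 29.3%. These populations differ in gate as well as in tissue.

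Over the 7 groups the order of levels fell into 2 patterns. Sirpa, Sirpb1a, Cd300c2, Cd300a, Pecam1 and Lair1 were highest on average in lymph node AGF− cells of AireKO mice, followed by those of KI/+ mice. The genotypes overlapped there for each of these genes but Pecam1. Pilra and Cd300lf were highest on average in bone marrow total DCs, which for Cd300lf overlapped lymph node AGF− cells of AireKO mice. Bone marrow AGF+ cells were lowest, with the genotypes overlapping, for Sirpa, Cd300c2, Cd300a, Cd300lf and Lair1, and lymph node AGF+ cells were lowest for Pecam1. Per length, lymph node AGF+ cells of KI/+ mice held 75.9 ± 8.51 CPM per kb of Sirpa, then 11.8 ± 2.23 of Cd300a, 6.97 ± 1.83 of Cd300lf, 5.73 ± 0.735 of Lair1, 3.98 ± 0.310 of Pecam1, 3.79 ± 0.481 of Cd300c2, 1.63 ± 0.332 of Sirpb1a and 0.421 ± 0.156 of Pilra.

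The question of whether the AireKO genotype changes these receptors was tested, and edgeR called 0 members in any sort, as did DESeq2. At an unadjusted p under 0.05 edgeR gave 2, Pecam1 and Pilra in lymph node AGF− cells, and 0 elsewhere. In lymph node AGF+ cells the 8 log2 fold changes lay between -0.56 and 0.50, with a median of -0.04, adjusted p-values of at least 0.967, and overlapping genotypes for all 8. Groups that do not overlap occurred in 5.3% of genes upwards and 5.01% downwards. Among 15884 genes 2 were called there (0.0126%) and 584 had an unadjusted p under 0.05. The 95% interval was narrowest for Pecam1, from -0.37 to 0.21, and included changes of -1.26 for Sirpb1a and 1.48 for Pilra.

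In lymph node AGF− cells all 8 values were positive, with a median of 0.31 beside 0.03 over all genes. Only Pecam1 had genotypes that did not overlap, with 114, 101 and 106 CPM in AireKO, against 79.7, 81.1 and 99.5 CPM in KI/+ libraries (0.29 ± 0.12, 95% interval 0.02 to 0.56, edgeR adjusted p = 0.819), as did 4.5% of genes in that direction. Pilra stood at 0.65 ± 0.30 (95% interval 0.01 to 1.29, adjusted p = 0.829), and the other 6 lay between 0.02 and 0.46. Among all genes 1 was called (0.0063%), 2 with the replicate number as a block, and 948 had an unadjusted p under 0.05. Monocyte and macrophage markers summed to 2145 to 3033 CPM in AireKO and 2174 to 2328 CPM in KI/+ libraries, with 10 of 10 positive and a median of 0.45. All 6 B cell markers (median 0.54), all 6 T and NK cell markers (0.51) and all 6 cDC2 markers (0.43) were positive too, as were 40 of the 42 other paired receptors described below (0.40), so positive values were not particular to the 8 members. The part of these cell types was not tested.

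Between genotypes in bone marrow AGF+ cells, the 7 members with counts lay between -0.24 and 0.40, with adjusted p-values of 1. Pecam1 had 47.9, 47.7 and 43.1 CPM in AireKO, against 56.9, 57.4 and 50.3 CPM in KI/+ libraries, with no overlap (-0.24 ± 0.19, 95% interval -0.66 to 0.17), as did 3.49% of genes in that direction. Here 2 of 15503 genes were called (0.0129%) and 264 had an unadjusted p under 0.05. The interval for Pilra, from -1.78 to 1.82, shows how little its 19 counts in AireKO and 21 counts in KI/+ libraries can tell.

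The interaction of genotype with sort in the lymph node was negative for all 8 members, from -0.62 for Sirpb1a to -0.14 for Sirpa, and passed for none (adjusted p = 1 for each). The median was -0.33, beside -0.02 over all genes. Negative values were not particular to the members. They were found for 36 of the 42 other paired receptors described below (median -0.56) and 10 of 10 monocyte and macrophage markers (-0.43), while all 6 cDC1 markers were positive (0.20). Among all genes 1 passed (0.0063%), and 261 had an unadjusted p under 0.05. The 95% interval of Cd300c2 was -1.29 to 0.11 and that of Pecam1 -0.76 to 0.03.

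**Figure D4:**
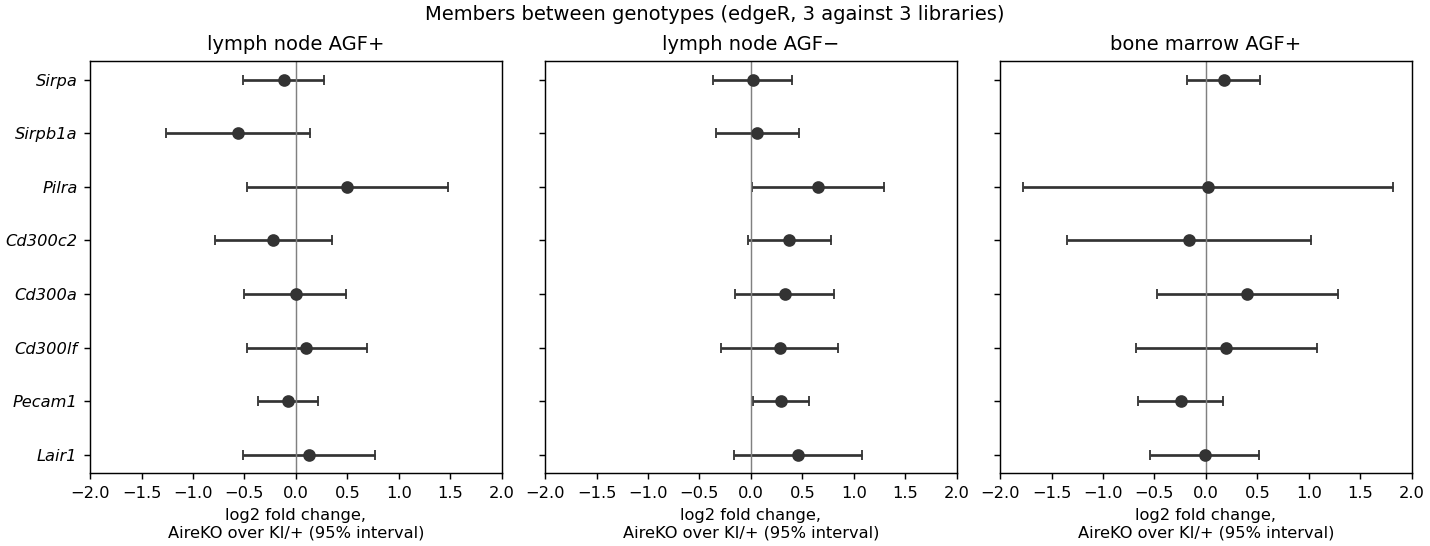
Log2 fold change of AireKO over KI/+ (horizontal axes) for each member in 3 sorted populations, with 95% intervals from edgeR (3 against 3 libraries). All 8 values lie above 0 in lymph node AGF− cells, with Pilra at 0.65 and Sirpa at 0.02, and no member passed the adjusted test in any panel.

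A list of 65 other paired receptors, of which 57 were found in the table, was tested wherever counts allowed. In lymph node AGF+ cells 2 rose and 34 fell of 42 tested in AireKO mice, and 2 rose and 28 fell in KI/+ mice. The background was 11.4% higher and 13.3% lower of all genes in AireKO and 10.1% and 11% in KI/+ mice. Of 39 tested in bone marrow, 2 rose and 32 fell in AGF+ cells, beside 23% and 21.3% of all genes. The median log2 fold change of the list was -2.18, -1.67 and -3.27 in the 3 comparisons. The list was drawn up with results of these libraries known, so its counts are descriptions and its p-values no independent support.

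Besides the SIRP and CD300 genes, the inhibitory C-type lectin receptor Clec4a2 (DCIR) fell by 3.82 ± 0.31 in AireKO (edgeR adjusted p = 1.8e-06) and by 3.06 ± 0.29 in KI/+ lymph node AGF+ cells (adjusted p = 1.1e-05). Cd22, an inhibitory B cell lectin, fell by 3.30 ± 0.30 in AireKO (adjusted p = 4.7e-06) and fell by 2.78 ± 0.29 in KI/+ cells (adjusted p = 2.2e-05), beside the B cell markers given above. The receptors with the smallest p in bone marrow AGF+ cells were Fcgr1, the high-affinity IgG receptor, at -5.63 ± 0.43 (adjusted p = 4.4e-06), Clec12a, an inhibitory lectin that senses uric acid crystals, at -4.97 ± 0.41 (adjusted p = 7e-06), and Tarm1 at -2.13 ± 0.19 (adjusted p = 1.1e-05). Clec5a (-3.82 ± 0.35), Cd200r1 (-3.27 ± 0.32), the inhibitory receptor for CD200, and Clec4a1 (-4.76 ± 0.48) also fell there. The 2 that rose in the lymph node were Siglecf and Siglecg, and in bone marrow Siglech and Siglecg.

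**Figure D5:**
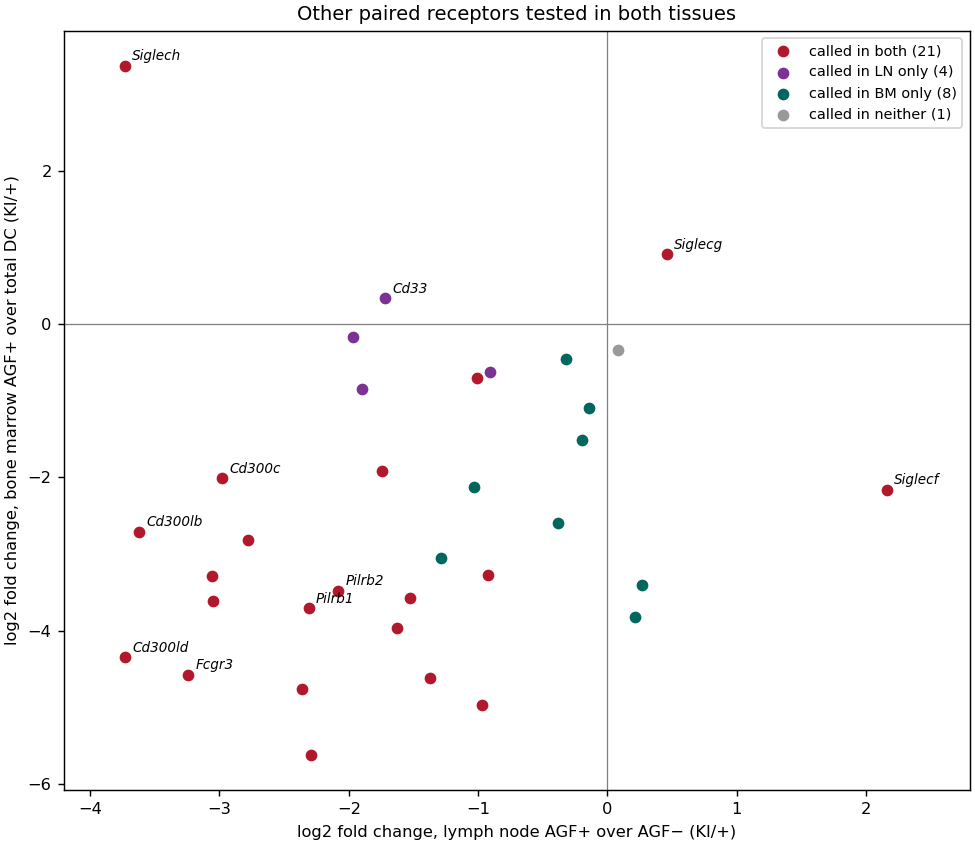
Log2 fold changes of 34 other paired receptors tested in both tissues, lymph node AGF+ over AGF− (horizontal axis) against bone marrow AGF+ over total DC (vertical axis), in KI/+ mice. 21 were called in both tissues, and Siglech (-3.73 in lymph node, 3.38 in bone marrow) and Siglecf (2.16 and -2.16) were the 2 called in both with opposite signs.

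Between lymph node and bone marrow AGF+ cells the other receptors went both ways. Of 47 tested, 16 were higher and 10 lower in AireKO mice, beside 25.7% each way over all genes, and 21 and 10 in KI/+ mice, beside 27.2% and 27%. Treml2 was lower by 4.93 ± 0.36 in AireKO (edgeR adjusted p = 9.1e-10) and by 5.16 ± 0.36 in KI/+ lymph node cells (adjusted p = 4e-10), as were Tarm1 (-3.74 ± 0.34 and -3.32 ± 0.33) and Cd33 (-2.52 ± 0.30 and -3.15 ± 0.30). Clec12a (3.29 ± 0.34 and 4.23 ± 0.37), Clec5a (4.88 ± 0.49 and 4.19 ± 0.45) and Cd22 (5.07 ± 0.56 and 4.39 ± 0.48) were higher. In lymph node AGF− cells against total DCs 16 were higher and 19 lower, beside 28.8% and 27.3% of all genes. In the 3 genotype comparisons and the interaction edgeR called 0 of these receptors, and DESeq2 called 0 as well. At an unadjusted p under 0.05 edgeR gave 1 in lymph node AGF+ cells, 6 in AGF− cells, 3 in bone marrow AGF+ cells and 2 for the interaction.

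Of 10 adaptors and activating kinases, 1 rose and 7 fell in AireKO and 1 rose and 6 fell in KI/+ lymph node AGF+ cells, beside 11.4% higher and 13.3% lower of all genes in AireKO and 10.1% and 11% in KI/+ mice. Tyrobp, which encodes DAP12, the partner of SIRPβ1 and CD300c2, stood at 115 ± 13.5 CPM in AireKO AGF+ cells, against 240 ± 61.0 CPM in AGF− cells (-1.06 ± 0.16, edgeR adjusted p = 0.00027), and at 124 ± 2.36 CPM in KI/+ AGF+ cells, against 195 ± 16.3 CPM (-0.65 ± 0.16, adjusted p = 0.00926). The fall of the adaptor was smaller than the gaps of Sirpb1a and Cd300c2, although these differences were not tested against each other. The Src-family kinases Lyn (-0.92 ± 0.13 in AireKO and -0.68 ± 0.13 in KI/+) and Fgr (-0.85 ± 0.15 and -0.60 ± 0.15) fell, and Src itself rose by 1.30 ± 0.19 and 1.54 ± 0.19. Fcer1g, the common Fc receptor γ chain, did not pass (-0.10 ± 0.20 and 0.08 ± 0.20).

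The same list in bone marrow AGF+ cells had 1 rise and 6 falls among 9 tested, beside 23% higher and 21.3% lower of all genes. Fcer1g stood at 23.4 ± 2.54 CPM in KI/+ AGF+ cells, against 74.6 ± 3.73 CPM in total DCs (-1.66 ± 0.15, edgeR adjusted p = 1.4e-05), and Tyrobp at 34.2 ± 8.15 CPM, against 105 ± 15.3 CPM (-1.60 ± 0.19, adjusted p = 6.1e-05). Lyn fell by 1.12 ± 0.15 and Btk by 0.83 ± 0.14. Between the tissues, AGF+ cells of KI/+ lymph node were higher in Fgr (3.83 ± 0.21), Fcer1g (2.86 ± 0.20) and Tyrobp (1.86 ± 0.18), and 8 of 10 genes rose, beside 27.2% of all genes.

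A list of 10 genes, drawn up as effectors of the inhibitory side, includes the adaptors Fyb and Skap2, which are not themselves inhibitory. Of the 10, 5 fell and 0 rose in AireKO lymph node AGF+ cells, beside 13.3% of all genes lower. In KI/+ cells 3 fell and 0 rose, beside 11% of all genes lower. In bone marrow AGF+ cells 2 rose and 5 fell of 10, beside 23% and 21.3% of all genes. Ptpn6, which encodes SHP-1, stood at 194 ± 24.1 CPM in AireKO AGF+ cells, against 339 ± 62.3 CPM in AGF− cells (-0.81 ± 0.13, edgeR adjusted p = 0.00043), and at 195 ± 6.39 CPM in KI/+ AGF+ cells, against 286 ± 11.3 CPM (-0.56 ± 0.13, adjusted p = 0.0068). The adaptor Dok3 fell by 2.25 ± 0.20 and 1.60 ± 0.20 and Dok2 by 2.87 ± 0.56 and 2.42 ± 0.56 in AireKO and KI/+ mice, and in AireKO mice the kinase Csk fell by 0.52 ± 0.12 and Inpp5d, which encodes the lipid phosphatase SHIP1, by 0.38 ± 0.12. Ptpn11, which encodes SHP-2, was at 113 ± 9.64 CPM in AireKO and 111 ± 1.88 CPM in KI/+ AGF+ cells, against 125 ± 17.8 and 112 ± 12.1 CPM in AGF− cells, and did not pass. In bone marrow Ptpn6 did not pass either (0.07 ± 0.17), Fyb, a scaffold of the SKAP family complex, rose by 2.30 ± 0.23 (adjusted p = 2.5e-05), and Csk fell by 0.85 ± 0.10 (adjusted p = 8.1e-05).

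Among 12 ligand genes tested in lymph node DCs, 1 rose and 2 fell in AireKO and 1 rose and 3 fell in KI/+ AGF+ cells. Of all genes 11.4% were higher and 13.3% lower in AireKO and 10.1% and 11% in KI/+ mice, so the AireKO counts of the 12 ligands are near the background. In bone marrow 1 rose and 6 fell of 11, beside 23% and 21.3%. Cd47, which encodes the ligand of SIRPα, stood at 605 ± 45.6 CPM in AireKO and 605 ± 30.6 CPM in KI/+ AGF+ cells, against 805 ± 102 and 864 ± 92.5 CPM in AGF− cells, and fell by 0.41 ± 0.12 (edgeR adjusted p = 0.0207) and 0.52 ± 0.12 (adjusted p = 0.00716). Cd200, the ligand of CD200R, rose by 1.15 ± 0.31 (adjusted p = 0.0153) and 1.30 ± 0.31 (adjusted p = 0.00902), and Cd38 fell by 2.30 ± 0.31 and 1.73 ± 0.32. In bone marrow AGF+ cells Cd47 did not pass (0.08 ± 0.10), while the complement genes C1qa (-3.96 ± 0.34), C1qb (-3.55 ± 0.51) and C1qc (-3.96 ± 0.51), whose product binds LAIR-1, fell.

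Upstream sequences were available for 6 of the members and are shown because each of the 6 stood lower on average in lymph node AGF+ cells. Each is the 250 bases before the RefSeq start (GRCm38.p6, 5′ to 3′ on the strand of the gene). Capitals mark GAGGAA or its reverse complement TTCCTC, letters found in many sites of the myeloid factor PU.1. They occurred in 5 of the 6 sequences, in all but that of Sirpb1a, beside 23.3% of 32851 promoters of the same length searched on both strands. The members were chosen by their levels in these libraries, so this count is a description and no independent support. Of 8 SIRPβ, PILR and CD300 relatives that fell in lymph node AGF+ cells of both genotypes, 1 held the letters within its 250 bases, Cd300ld. Cd300ld3, Cd300ld4 and Cd300ld5, which were too low to test, held them too. In Pilra the letters lie upstream of the stretch aligned above, and the Pilrb1 and Pilrb2 sequences begin with that stretch. Bases further upstream were not searched, so the count cannot tell whether these genes share the site. Sirpb1b and Sirpb1c were 95.5% and 94.9% the same as Sirpb1a over the aligned bases, so they add little to it.
Sirpb1a, chr3:15426428-15426677, minus strand: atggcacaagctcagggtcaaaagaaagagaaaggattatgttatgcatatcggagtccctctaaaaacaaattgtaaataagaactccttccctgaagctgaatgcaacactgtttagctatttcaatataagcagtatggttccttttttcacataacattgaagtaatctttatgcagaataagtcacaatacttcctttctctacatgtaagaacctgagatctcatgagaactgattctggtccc
Pilra, chr5:137836279-137836528, minus strand: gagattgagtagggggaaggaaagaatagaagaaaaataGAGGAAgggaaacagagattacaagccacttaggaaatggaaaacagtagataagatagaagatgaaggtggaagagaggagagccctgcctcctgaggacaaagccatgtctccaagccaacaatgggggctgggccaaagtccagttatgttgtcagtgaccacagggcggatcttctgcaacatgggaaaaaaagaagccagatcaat
Cd300c2, chr11:115001881-115002130, minus strand: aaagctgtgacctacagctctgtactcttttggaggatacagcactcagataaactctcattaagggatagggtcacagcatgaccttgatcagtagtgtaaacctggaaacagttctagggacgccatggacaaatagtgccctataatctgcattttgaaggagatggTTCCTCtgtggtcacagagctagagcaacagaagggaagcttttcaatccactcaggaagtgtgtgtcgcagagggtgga
Cd300a, chr11:114889791-114890040, plus strand: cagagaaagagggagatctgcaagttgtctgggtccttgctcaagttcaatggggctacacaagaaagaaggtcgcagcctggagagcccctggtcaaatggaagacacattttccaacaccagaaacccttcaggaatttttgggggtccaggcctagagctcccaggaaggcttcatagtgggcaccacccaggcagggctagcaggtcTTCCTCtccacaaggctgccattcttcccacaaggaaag
Cd300lf, chr11:115133993-115134242, minus strand: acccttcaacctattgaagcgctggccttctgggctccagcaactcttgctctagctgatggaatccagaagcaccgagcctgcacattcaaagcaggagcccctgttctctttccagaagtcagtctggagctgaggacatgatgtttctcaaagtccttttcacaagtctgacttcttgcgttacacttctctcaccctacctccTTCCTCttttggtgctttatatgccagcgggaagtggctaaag
Lair1, chr7:4063205-4063454, minus strand: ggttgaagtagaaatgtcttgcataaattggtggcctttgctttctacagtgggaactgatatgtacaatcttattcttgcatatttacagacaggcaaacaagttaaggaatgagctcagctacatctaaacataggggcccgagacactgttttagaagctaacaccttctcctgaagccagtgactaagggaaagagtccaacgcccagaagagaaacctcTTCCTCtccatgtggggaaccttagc
The letters stood on the strand of the gene in Pilra and on the other strand in Cd300c2, Cd300a, Cd300lf and Lair1. A match is a description of the letters and says nothing of binding.

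Genes whose pattern over the 21 libraries was most like each member were found by the root mean square difference of centred log2 CPM, among 9372 genes. Closest to Sirpa were Man2b1 (0.19), a lysosomal mannosidase, Scarb1 (0.22) and Pfkfb4 (0.23), and closest to Pecam1 were Mpeg1 (0.27), Sema4d (0.33) and Pld4 (0.35). Lair1 was nearest to Vsir (0.31), Selenop (0.33) and Tyrobp (0.34), the DAP12 gene, and Cd300a to Vsir (0.45), P2rx7 (0.49) and Myo1f (0.49). Cd300lf was nearest to the paired receptor Cd200r1 (0.49), Pilra to Ms4a6d (0.67) and Cd300c2 to AB124611 (0.53). For Sirpb1a the nearest gene, Adgre4, a macrophage adhesion receptor, was at 1.31. Sirpb1b and Sirpb1c, described above, were below the level required of the genes compared. Among the members the nearest pair was Cd300a and Lair1, at 0.50.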

How the data were processed

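Sorted DCs of 7 groups were sequenced in 21 libraries. Per the labels, Ovation SoLo libraries were made from 1 ng of RNA (integrity number over 7) and read paired-end at 150 bp. The submitters' processing notes name mm10 with HTSeq 0.11.2, edgeR 3.38.1, STAR 2.7.3a, fastp 0.20.0, Picard 2.21.1 and SAMtools 1.9, in no order. The labels and notes do not say how reads that map to several genes were handled, whether strand was used or which annotation release was counted.

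The table deposited by the authors holds raw read counts (unit: counts) for 55471 genes, and all values here start from it. Symbols came from GENCODE vM21, with 327 genes and 0.0139% of counts unmatched. The authors' normalized table of 17265 genes was not used, since it equals the counts times 1 factor per library. CPM was taken over library sizes scaled by TMM factors of 0.877 to 1.09, with totals of 4164451 to 6055097. A gene at 1 CPM thus rests on 3.92 to 6.58 counts in a library, and floors cover counting error only.

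Tests used edgeR 4.0.16 in R 4.3.3 (quasi-likelihood F test after filterByExpr with the groups and TMM scaling; a call is an adjusted p under 0.05, by Benjamini-Hochberg over all genes). The 12 lymph node libraries, the 9 bone marrow libraries and, across tissues, all 21 were fitted together. Members and gene lists were chosen with earlier results of these data known. The text names all 8 members, every SIRP, PILR and CD300 receptor tested, up to 6 called genes per list with the smallest p in the comparisons described, and 3 nearest genes per member among those with average log2 CPM of at least 3, apart from 1 gene that is not reported here.

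Libraries with the same replicate number deviated together (every r above 0.1) in 5 of 9 compared pairs, all within a tissue. Alternatives were a replicate block, all genes kept whatever their counts, scaling by library size alone or by size factors of DESeq2 1.42.0, the Wald test of DESeq2, the fit without the libraries numbered 2, and each library left out. The tests were tested on simulated counts. Tables were made with pandas 2.3.3 and numpy 2.4.6 in Python 3.11.15, and figures with matplotlib 3.10.9.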

Additional observations from a re-analysis of the deposited data

Results flagged for a closer look

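In KI/+ mice, all AGF+ libraries of 3 other paired receptors lay on 1 side of the other sort in lymph node and on the other side in bone marrow. The difference between tissues was not tested. The share of all genes that change sides in this way was not determined, so the 3 cannot be set against a background. Taken by tissue, 19.1% of genes tested lay wholly lower in lymph node AGF+ cells and 25.4% in bone marrow AGF+ cells. Siglech, a DAP12-coupled receptor of plasmacytoid DCs, had a log2 fold change of -3.73 in KI/+ lymph node AGF+ cells and 3.38 in bone marrow AGF+ cells. The 6 plasmacytoid DC markers, of which Siglech is 1, had medians of -2.16 in lymph node (3 fell) and 2.14 in bone marrow (5 rose), and their part in this was not tested. Siglecf, an inhibitory receptor best known from eosinophils, stood at 2.16 in lymph node and -2.16 in bone marrow. Markers of eosinophils, basophils and mast cells summed to 15.5 to 66.9 CPM in KI/+ bone marrow AGF+ libraries and 106 to 233 CPM in total DCs, and 4 of 4 tested fell (median -2.83). Of the 2 tested in lymph node 1 rose and 1 fell, and their part in this was not tested. Cd33 stood at -1.72 in lymph node and 0.34 in bone marrow, where it did not pass the test (edgeR adjusted p = 0.107).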

How the results depend on the processing

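Among genotype counts, leaving out 1 library moved the genes called to 2 to 7 in lymph node AGF+ cells (7 without KI/+ library 2), to 1 to 89 in AGF− cells (89, and 1 other paired receptor against 0, without AireKO library 2), and to 1 to 2 for the interaction. Without a filter on low counts 97, 270, 26 and 14 genes were called for genotype in lymph node AGF+, AGF− and bone marrow AGF+ cells and for the interaction, with 1 other paired receptor in each lymph node comparison and 1 for the interaction. The DESeq2 Wald test called 4, 3 and 2 genes and the replicate block 4, 2 and 2 in lymph node AGF+ cells, AGF− cells and the interaction. The block changed no other call of a member or count beyond these. In lymph node AGF+ cells of the 2 genotypes the lowest correlation of same-numbered libraries was 0.0761, so there the block rests on a shared number only. Without the libraries numbered 2 the genes called were 1942 against 3349 for the lymph node sort in KI/+, 3858 against 6866 for the bone marrow sort, 1 for bone marrow genotype and 0 for the interaction. The cause of these changes was not tested, apart from the fewer samples.

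Library size alone shifted the median of all genes by over 0.1 in bone marrow and across tissues. The shift was 0.11 in the bone marrow sort and 0.15, 0.16 and 0.24 for AGF+ cells across tissues in AireKO and KI/+ and for AGF− cells against total DCs. It gave 4222 higher and 2649 lower genes against 3558 and 3308 in the first of these, then 5546 and 3683 against 4436 and 4439, 5794 and 3885 against 4696 and 4669, and 6492 and 3478 against 4971 and 4721. Among members, signs reversed for genotype and interaction values, none of which passed the test, and for Pilra in AGF+ cells across tissues in KI/+, at 0.07 with library size alone, 0.17 without lymph node AGF+ library 1 and 0.57 without bone marrow AGF+ library 1. Cd300a in lymph node AGF+ cells stood at 0.00 with DESeq2 size factors and the Wald test and at 0.10 without the libraries numbered 2, and Pilra in bone marrow at -0.01 with the Wald test and -0.47 without those libraries. With 1 library left out, lymph node AGF+ values ranged from -0.13 to 0.17 for Cd300a, -0.27 to 0.33 for Cd300lf and -0.06 to 0.25 for Lair1. AGF− values ranged from -0.16 to 0.15 for Sirpa and -0.06 to 0.25 for Sirpb1a. Bone marrow values ranged from -0.46 to 0.70 for Pilra, -0.63 to 0.51 for Cd300c2, -0.11 to 0.42 for Cd300lf and -0.18 to 0.24 for Lair1. Interaction values ranged from -0.28 to 0.03 for Sirpa, -0.48 to 0.08 for Pilra, -0.54 to 0.05 for Cd300lf and -0.59 to 0.10 for Lair1.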
